A study of Danio rerio with 24 samples.

Results

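The comparison described here is that of endodermal cells from zebrafish embryos treated with retinoic acid (RA) with endodermal cells from embryos given the solvent DMSO, both collected at the 3-somite (3-S) stage. Its members are 6 of the 24 libraries of the series, chosen by their labels as the 3 RA and the 3 DMSO libraries of cells carrying GFP at 3-S. All embryos came from incrosses of Tg(sox17:GFP) adults, a line in which a sox17 promoter drives GFP in endodermal cells, were grown at 23 degrees and were treated from the 2-cell stage until the 3-S stage. The RA group received RA and the DMSO group the solvent, and GFP+ cells were sorted from embryos whose chorion and yolk had been removed. The same DMSO embryos also gave GFP- non-endodermal (NE) cells, and the rest of the series holds cells from embryos treated with BMS493, an inverse agonist of RA receptors, and the same kinds of cells at the 8-somite (8-S) stage, when the embryos had been washed free of the compounds. The labels give replicate numbers but do not say that replicates came from separate clutches, so the p-values measure only the spread between samples. That spread was estimated over all 24 libraries of the series.

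RA is a small signalling molecule made from vitamin A. Retinol dehydrogenases turn retinol into retinaldehyde, aldehyde dehydrogenases of the Aldh1a family turn retinaldehyde into RA, and the Cyp26 enzymes oxidise RA and so end its signal. RA enters the nucleus and binds RA receptors (RAR), which sit on DNA as partners of retinoid X receptors (RXR) and switch from repression to activation when RA is bound. In vertebrate embryos RA made by the early paraxial mesoderm patterns the hindbrain through hox genes, and in zebrafish endoderm it is required for the pancreas to form, while the anterior pharyngeal endoderm is kept low in RA.

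The 3 RA libraries held 9971059 to 14356761 reads counted to genes and the 3 DMSO libraries 11650912 to 15432052. Endodermal identity was checked against NE cells of the same stage. The summed normalised count of the 14 pan-endodermal genes was 36501 to 48018 in RA libraries and 36976 to 57328 in DMSO libraries, against 7886 to 12396 in NE libraries. sox17 (ENSDARG00000041345), which is also among these 14 genes, had 3209.9, 5479 and 12981 normalised counts in RA cells and 11954, 8496 and 11519 in DMSO cells, against a mean of 56.0 in NE cells. The sort itself used GFP driven by a sox17 promoter, so the gap of sox17 from NE cells is no separate check of identity. RA replicate 1 had the fewest reads, the fewest genes with a count (19150) and the highest share of reads outside annotated genes (20.78%) of the 6. Principal components were taken from the 500 genes that varied most over these 6 libraries. Component 1, with 58.8% of the variance of these genes, placed the RA libraries at 28.3 to 54.6 and the DMSO libraries at -53.4 to -29.2. DMSO replicate 1 stood apart from the other DMSO libraries on component 2 (36.84, against -28.31 and -21.04). Values are normalised counts (reads per gene divided by a DESeq2 size factor), so levels may be compared between libraries but not between genes of different length.

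RA changed many genes in both directions. Of 17935 genes tested, 804 (4.48%) were called with DESeq2 at an adjusted p under 0.01, with 375 (2.09%) higher and 429 (2.39%) lower in RA than in DMSO cells. The fold changes were large. The median log2 fold change was 2.65 among genes that rose and -2.82 among genes that fell, 145 genes rose and 194 genes fell at least 8-fold, and the smallest called change was a rise of 0.67 on the log2 scale. For 782 of the 804 called genes the 3 RA values all lay on one side of the 3 DMSO values. Over all genes tested, the 3 RA values were all above the DMSO values in 8.36% and all below them in 8.42%. The stricter quasi-likelihood test of edgeR called 453 genes (2.7% of 16800), 197 higher (1.17%) and 256 lower (1.52%), and each of these was among the DESeq2 calls.

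**Figure D1:**
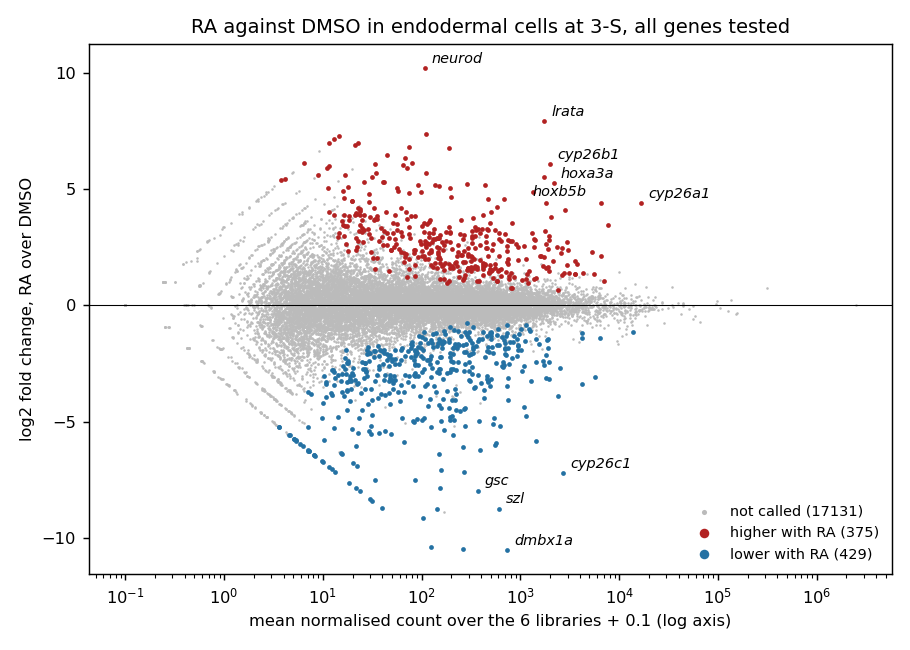
Log2 fold change of RA over DMSO endodermal cells at 3-S (y axis) against the mean normalised count over the 6 libraries (x axis, log scale), 1 point per gene tested. Red points are the 375 genes called higher, blue points the 429 called lower and grey points the genes not called, and the named points include cyp26a1 at 4.37 and cyp26c1 at -7.22.

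The 3 cyp26 genes, whose enzymes break down RA, did not move together. Among called genes the largest rise in counts was that of cyp26a1 (ENSDARG00000033999), with 38176, 23058 and 33201 normalised counts in the RA libraries, against 1804, 1441 and 1306 in the DMSO libraries. All RA values lay far above the DMSO values (log2 fold change 4.37 ± 0.36, SE, with DESeq2 adjusted p = 4.2e-30). The ± of every log2 fold change below is also the SE. cyp26b1 (ENSDARG00000077121) had 7139.9, 2485 and 2207 normalised counts in RA cells, against 56.6, 27.9 and 91.8 in DMSO cells, a log2 fold change of 6.07 ± 0.66 (DESeq2 adjusted p = 1.9e-17) whose value without RA replicate 1, the highest library, was 5.33. cyp26c1 (ENSDARG00000056029) went the other way and was nearly lost. It had 6.57, 41.0 and 58.8 normalised counts in RA cells, against 9828, 2768 and 3406 in DMSO cells (log2 fold change -7.22 ± 0.62, DESeq2 adjusted p = 6.4e-28, and -6.42 without DMSO replicate 1). In NE cells the means were 619.9 for cyp26a1, 459 for cyp26b1 and 777 for cyp26c1.

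Some of the genes that take retinoids away from RA synthesis also rose. Of the 8 tested genes on the list for retinoid reduction and storage, 3 rose and 0 fell (2 without RA replicate 2). Over all genes tested 2.09% were called higher and 2.39% lower. lrata (ENSDARG00000037278), which encodes a lecithin retinol acyltransferase that stores retinol as retinyl esters, had 4580.3, 4551 and 1243 normalised counts in RA cells, against 8.22, 16.6 and 18.8 in DMSO cells (log2 fold change 7.90 ± 0.64, DESeq2 adjusted p = 3.7e-31). The groups were far apart, although RA replicate 3 was well below the other RA libraries. The short-chain dehydrogenases dhrs3a (ENSDARG00000044982) and dhrs3b (ENSDARG00000044803), which reduce retinaldehyde to retinol, were high in both groups. For dhrs3a the normalised counts were 12750, 17160 and 12721 in RA cells, against 1556, 1185 and 1112 in DMSO cells (log2 fold change 3.47 ± 0.43, DESeq2 adjusted p = 2.5e-13). For dhrs3b they were 6692, 10554 and 14496 in RA cells, against 2541, 2089.9 and 2693 in DMSO cells (log2 fold change 2.12 ± 0.32, DESeq2 adjusted p = 8.5e-09). A paralogue of lrata, lratb.1 (ENSDARG00000096594), was not called, with 36.8, 233 and 104 normalised counts in RA cells and 687, 319.7 and 366 in DMSO cells (log2 fold change -1.87 ± 0.55, DESeq2 adjusted p = 0.013). Without RA replicate 2, the highest RA library, it was called lower (log2 fold change -2.69, adjusted p = 1.3e-04).

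On the side of synthesis, 1 of 9 tested genes was called, where 4.48% of all genes tested were called in either direction. aldh1a2 (ENSDARG00000053493), the enzyme that makes most RA in the early embryo, had 296, 685 and 505 normalised counts in RA cells, against 42.0, 163 and 68.9 in DMSO cells (log2 fold change 2.44 ± 0.47, DESeq2 adjusted p = 1.6e-05, and 3.16 without DMSO replicate 2). The groups did not overlap. The retinol dehydrogenase rdh10a (ENSDARG00000058730) had 193, 200.3 and 227 normalised counts in RA cells and 495, 413 and 323 in DMSO cells, which did not overlap either, but it was not called (log2 fold change -0.99 ± 0.32, DESeq2 adjusted p = 0.0353). A second gene listed as RDH10 (ENSDARG00000012369) and the retinol dehydrogenase gene SDR16C5 (ENSDARG00000016233) had log2 fold changes of -0.55 ± 0.39 and 0.75 ± 0.31 and were not called.

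Genes for proteins that bind or take up retinoids changed in both directions, 2 higher and 1 lower of 9 tested (1 higher without RA replicate 2). The shares over all genes tested were 2.09% higher and 2.39% lower. rbp1a (ENSDARG00000016235), a cellular retinol-binding protein, had 6974, 11463 and 8079 normalised counts in RA cells, against 1649, 2578 and 1267 in DMSO cells (log2 fold change 2.27 ± 0.32, DESeq2 adjusted p = 2.0e-10). The paralogues of the cellular RA-binding protein gene crabp2 were opposite to each other. crabp2a (ENSDARG00000040923) had 522, 1955 and 503 normalised counts in RA cells, against 135, 57.9 and 125 in DMSO cells (log2 fold change 3.23 ± 0.72, DESeq2 adjusted p = 3.4e-04), and this rise rested in part on RA replicate 2, without which the log2 fold change was 2.27 and the adjusted p 0.0519. crabp2b (ENSDARG00000030449) had 63.1, 23.3 and 77.5 normalised counts in RA cells, against 326, 199.7 and 248 in DMSO cells (log2 fold change -2.24 ± 0.41, DESeq2 adjusted p = 3.7e-06). Every RA library was below every DMSO library for crabp2b and above for crabp2a.

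Among 18 tested receptor and cofactor genes, 2 rose (1 when any one of the 6 libraries was left out) and 4 fell. The shares over all genes tested were 2.09% higher and 2.39% lower. raraa (ENSDARG00000056783), an RAR alpha gene, had 5771, 4029 and 5723 normalised counts in RA cells, against 1674, 2206 and 2221 in DMSO cells (log2 fold change 1.35 ± 0.28, DESeq2 adjusted p = 6.3e-05). Its paralogue rarab (ENSDARG00000034893) had 368, 227 and 308 in RA cells, against 1124, 1104 and 1072 in DMSO cells (log2 fold change -1.87 ± 0.34, DESeq2 adjusted p = 3.5e-06). The RAR gamma gene rarga (ENSDARG00000034117) was almost absent with RA, at 2.63, 0.931 and 26.4 normalised counts in RA cells, against 291, 1096 and 919 in DMSO cells (log2 fold change -6.22 ± 0.73, DESeq2 adjusted p = 4.0e-15, and -8.85 without RA replicate 3). Of the RA libraries replicate 3 held most of what was left. The second gamma gene, rargb (ENSDARG00000054003), had 0 counts in every RA library, against 4.56, 13.5 and 3.13 normalised counts in DMSO cells, and its call was lost when any of the RA libraries or DMSO replicate 2 was left out (adjusted p up to 0.0564). The RXR gamma gene rxrgb (ENSDARG00000004697) had 143, 166 and 257 normalised counts in RA cells, against 523, 509 and 635 in DMSO cells (log2 fold change -1.55 ± 0.29, DESeq2 adjusted p = 5.4e-06). Its paralogue rxrga (ENSDARG00000005593) was not called (97.2, 215 and 468 in RA cells, 134, 139 and 113 in DMSO cells, DESeq2 adjusted p = 0.167), nor was the RXR alpha gene listed as RXRA (ENSDARG00000057737) (log2 fold change -1.11 ± 0.37, DESeq2 adjusted p = 0.0433). The corepressor gene nrip1a (ENSDARG00000068965), known in mammals as an RA target, had 218, 251 and 267 normalised counts in RA cells, against 65.7, 65.2 and 56.3 in DMSO cells (log2 fold change 1.97 ± 0.53, DESeq2 adjusted p = 0.00462). The values did not overlap, but the call was lost without any one of the 6 libraries (adjusted p up to 0.0327). Its paralogue nrip1b (ENSDARG00000068894) was not called (log2 fold change 0.49 ± 0.30, DESeq2 adjusted p = 0.469). No other tested member of the 5 retinoid lists was called.

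**Figure D2:**
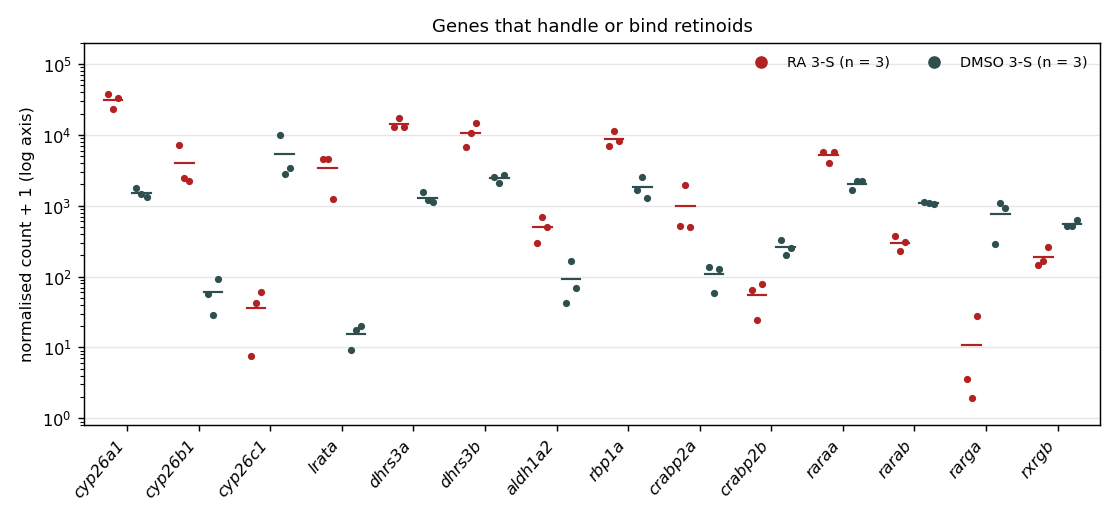
Normalised counts plus 1 (y axis, log scale) of 14 genes that break down, store, make, carry or bind retinoids (x axis), with 1 point per library, RA 3-S in red on the left and DMSO 3-S in dark grey on the right of each gene, and a bar at the mean of 3. The RA points lie above the DMSO points for cyp26a1, cyp26b1, lrata, dhrs3a, dhrs3b, aldh1a2, rbp1a, crabp2a and raraa and below them for the others, with cyp26c1 and rarga the lowest in RA cells.

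Orphan nuclear receptors were the other receptor group that moved. Of 8 tested members of the nr2f, nr5a and nr6a families, 4 rose and none fell, beside 2.09% higher and 2.39% lower over all genes tested. nr2f1a (ENSDARG00000052695) had 7395, 3009 and 4939.5 normalised counts in RA cells, against 833, 994 and 1091 in DMSO cells (log2 fold change 2.39 ± 0.36, DESeq2 adjusted p = 2.2e-09). nr2f5 (ENSDARG00000033172) had 3774, 2669 and 3573 in RA cells, against 839.9, 1058 and 765 in DMSO cells (log2 fold change 1.91 ± 0.32, DESeq2 adjusted p = 3.2e-07). Both are COUP-TF genes, whose products compete with other receptors for DNA sites. nr5a2 (ENSDARG00000042556), a receptor needed in liver and pancreas development, had close replicates, with 2297, 2458 and 2237 normalised counts in RA cells, against 420, 426 and 369 in DMSO cells and a mean of 1.74 in NE cells (log2 fold change 2.52 ± 0.30, DESeq2 adjusted p = 6.1e-15). nr6a1b (ENSDARG00000014480) had 248, 179.8 and 958 in RA cells, against 5.48, 69.3 and 34.4 in DMSO cells (log2 fold change 3.67 ± 0.81, DESeq2 adjusted p = 2.6e-04), and without RA replicate 3 its adjusted p was 0.0509 (log2 fold change 2.56 without RA replicate 3 and 4.54 without DMSO replicate 2).

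The hox genes, which give cells their position along the body axis, split by paralogue group. Of 13 tested genes of groups 1 to 4, 9 rose and 2 fell. Of 11 tested genes of groups 5 to 8, 7 rose and none fell. Of 17 tested genes of groups 9 to 13, none rose and 12 fell. The median log2 fold changes were 2.09, 2.83 and -4.85, beside 0.02 over all genes tested. Of all genes tested 2.09% were called higher and 2.39% lower. With the 5 genes that were at or near 0 in RA cells set to their lower bound, the median of groups 9 to 13 was -3.49. In all 17 tested genes of groups 9 to 13 the 3 RA values were below the 3 DMSO values, beside 8.42% of all genes tested. The edgeR test called 7 higher and 2 lower in groups 1 to 4 and 11 lower in groups 9 to 13. Over all genes tested edgeR called 1.17% higher and 1.52% lower. When one library was left out, 7 to 9 were higher in groups 1 to 4 and 10 to 12 lower in groups 9 to 13. Groups 5 to 8 kept 7 higher with edgeR and in each fit without one library. In group 7 the single gene tested, hoxb7a (ENSDARG00000056030), was not called, with 1075, 2009 and 1039 normalised counts in RA cells and 2402, 789 and 1065 in DMSO cells.

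The largest rises of the family in counts were those of hoxb5b (ENSDARG00000054030) and hoxb6b (ENSDARG00000026513). hoxb5b had 9491, 15543 and 12861 normalised counts in RA cells, against 708, 649.7 and 435 in DMSO cells (log2 fold change 4.40 ± 0.27, DESeq2 adjusted p = 4.9e-56), the smallest adjusted p of any gene. hoxb6b had 5300.4, 6573 and 4186 in RA cells, against 424, 327 and 188 in DMSO cells (log2 fold change 4.1 ± 0.39, DESeq2 adjusted p = 1.5e-22). Their paralogues hoxb5a (ENSDARG00000013057) and hoxb6a (ENSDARG00000010630) rose by 4.40 ± 0.39 and 2.83 ± 0.37 on the log2 scale, as did hoxb8b (ENSDARG00000054025) by 3.19 ± 0.58. hoxa3a (ENSDARG00000036231) was close to identical across RA libraries, with 4214, 4255 and 4207 normalised counts in RA cells, against 178, 62.1 and 95.0 in DMSO cells (log2 fold change 5.24 ± 0.33, DESeq2 adjusted p = 3.8e-53). hoxa5a (ENSDARG00000001784) of the same cluster had 272, 540.3 and 326 in RA cells, against 8.22, 17.6 and 9.39 in DMSO cells (log2 fold change 5.02 ± 0.51, DESeq2 adjusted p = 2.7e-20). The group 1 genes all rose. hoxb1b (ENSDARG00000054033) and hoxb1a (ENSDARG00000008174), the early RA-responsive genes of the hindbrain, rose by 1.39 ± 0.29 and 1.73 ± 0.37 on the log2 scale, hoxc1a (ENSDARG00000070337) by 2.78 ± 0.42 and the weakly counted hoxa1a (ENSDARG00000057721) by 4.79 ± 0.85, with 77.5, 48.4 and 41.7 normalised counts in RA cells, against 0, 5.17 and 1.04 in DMSO cells (4.17 without DMSO replicate 1 and 6.83 without DMSO replicate 2). hoxb4a (ENSDARG00000013533) had 544, 409.9 and 903 in RA cells, against 1.83, 73.5 and 62.6 in DMSO cells, a gap with no overlap whose adjusted p of 0.00462 (DESeq2) was 0.0474 without RA replicate 3 and over 0.01 without any RA library or DMSO replicate 3.

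hoxb2a (ENSDARG00000000175) rose by 2.11 ± 0.38 (716, 401 and 432 in RA cells, against 141, 145 and 74.1 in DMSO cells). The 2 genes of groups 1 to 4 that fell were hoxd3a (ENSDARG00000059280) and hoxa2b (ENSDARG00000023031). hoxd3a had 9.20, 14.9 and 29.8 normalised counts in RA cells, against 151, 146 and 148 in DMSO cells (log2 fold change -3.00 ± 0.41, DESeq2 adjusted p = 4.6e-11, and -3.59 without RA replicate 3), and hoxa2b had 15.8, 18.6 and 6.82 in RA cells, against 43.8, 66.2 and 49.0 in DMSO cells (log2 fold change -1.97 ± 0.40, DESeq2 adjusted p = 5.9e-05). So within group 3 hoxa3a and hoxb3a (ENSDARG00000029263) rose while hoxd3a fell. At the posterior end of the clusters, hoxd11a (ENSDARG00000059267) had 1 raw count over the RA libraries, against 1600 over the DMSO libraries (764, 336 and 457 normalised counts), a ratio of 1590 in favour of DMSO with a 95% counting interval (exact, counting error only) of 286 to 63000. hoxc11a (ENSDARG00000070351) and hoxd12a (ENSDARG00000059263) had no count in RA cells, against 127, 49.7 and 59.5 and 50.2, 105 and 25.0 normalised counts in the DMSO libraries, so that they were at least 25.4-fold and at least 19.3-fold lower with RA, taking 3 counts per library as the limit that a count of 0 allows. hoxa10b (ENSDARG00000031337) had 0, 3.73 and 0 normalised counts in RA cells, against 398, 247 and 266 in DMSO cells. hoxd10a (ENSDARG00000057859) had 0, 2.79 and 7.67 in RA cells, against 725, 424 and 441 in DMSO cells, and hoxa11b (ENSDARG00000007009) had 0, 8.38 and 1.70 in RA cells, against 491, 198 and 198 in DMSO cells. Of the group 9 genes 2 fell, and RA replicate 1 stood below the other RA libraries in both. hoxa9b (ENSDARG00000056819) had 7.88, 113 and 179.8 normalised counts in RA cells, against 3027, 1516 and 1693 in DMSO cells (log2 fold change -4.37 ± 0.95, DESeq2 adjusted p = 1.7e-04, and -5.10 without RA replicate 3). hoxd9a (ENSDARG00000059274) had 1.31, 55.0 and 52.8 in RA cells, against 1275, 843 and 1049.7 in DMSO cells (log2 fold change -4.85 ± 0.97, DESeq2 adjusted p = 3.5e-05). Among the Meis and Pbx cofactors of Hox proteins 1 of 12 tested genes was called, meis2b (ENSDARG00000077840), with 3268, 2683 and 2656 in RA cells, against 1554, 772 and 786 in DMSO cells (log2 fold change 1.47 ± 0.36, DESeq2 adjusted p = 0.0016). The DESeq2 call of meis2b was lost without RA replicate 1, DMSO replicate 2 or DMSO replicate 3 (adjusted p up to 0.027). With edgeR 0 of these cofactor genes were called. Over all genes tested DESeq2 called 4.48% in either direction.

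**Figure D3:**
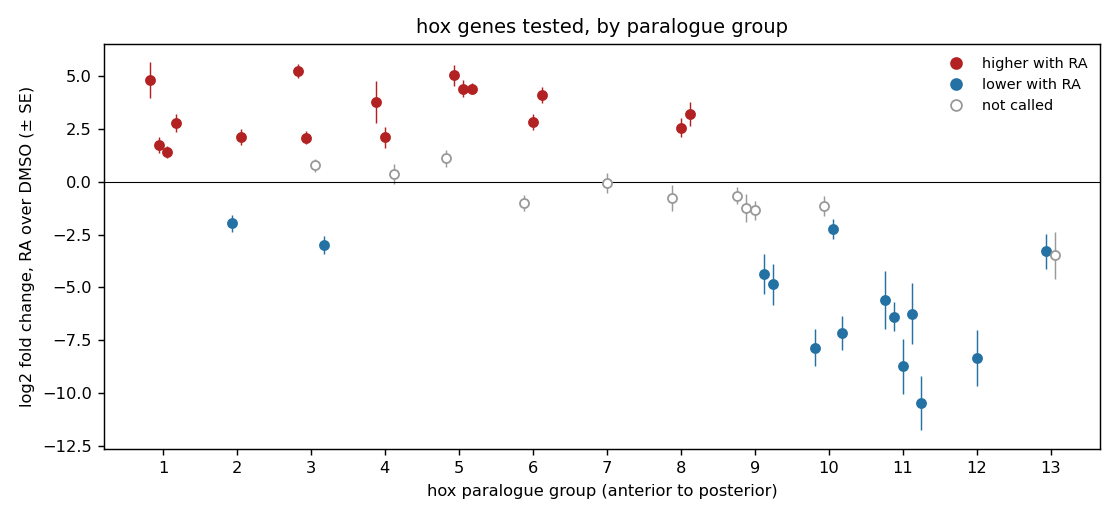
Log2 fold change of RA over DMSO at 3-S with its SE (y axis) for the 41 hox genes tested, by paralogue group (x axis). Red points were called higher, blue points lower and open grey points were not called. All called genes of groups 9 to 13 fell, and of the called genes of groups 1 to 8 only hoxd3a and hoxa2b did.

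More regulators of the foregut, liver and pancreas rose than fell. Of 28 tested genes on this list, 11 rose and 4 fell, with a median log2 fold change of 1.31. Over all genes tested 2.09% were called higher and 2.39% lower with DESeq2. The edgeR test called 5 of them higher and 2 lower, and leaving out one library left 5 to 10 higher (7 without DMSO replicate 1 and 5 without DMSO replicate 3). DESeq2 on only the 6 libraries compared called 5 higher and 3 lower. hnf1ba (ENSDARG00000006615), a homeobox gene required for early liver and pancreas specification in zebrafish, had 5266, 4461 and 3764 normalised counts in RA cells, against 2089, 1453 and 1636 in DMSO cells (log2 fold change 1.38 ± 0.24, DESeq2 adjusted p = 1.0e-06). gata6 (ENSDARG00000035831) had 9463, 2809 and 4787 in RA cells, against 809.8, 1862 and 1845 in DMSO cells (log2 fold change 1.92 ± 0.50, DESeq2 adjusted p = 0.00346), and its adjusted p was 0.112 without RA replicate 1, the highest library, and also over 0.01 without DMSO replicate 1. hnf4a (ENSDARG00000021494), a nuclear receptor of liver and gut epithelium, had 240.5, 248 and 139 in RA cells, against 94.0, 12.4 and 20.9 in DMSO cells (log2 fold change 2.29 ± 0.53, DESeq2 adjusted p = 5.3e-04, and 3.66 without DMSO replicate 1, and adjusted p 0.0136 without DMSO replicate 3). mnx1 (ENSDARG00000035984) had 1457, 1923 and 2199.7 in RA cells, against 706, 938 and 926 in DMSO cells (log2 fold change 1.12 ± 0.29, DESeq2 adjusted p = 0.00349). The call did not hold without RA replicate 2 or 3 or DMSO replicate 1 or 3 (adjusted p up to 0.045).

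Some genes of endocrine and neural differentiation rose, from low counts. neurod (ENSDARG00000019566), a basic helix-loop-helix gene of endocrine cells and neurons, had 49.9, 351 and 242 normalised counts in RA cells, against no count in DMSO cells, which is at least 71.7-fold higher with RA. ascl1a (ENSDARG00000038386) had 72.3, 184 and 132 normalised counts in RA cells, against 5.48, 13.5 and 5.22 in DMSO cells (log2 fold change 4.01 ± 0.65, DESeq2 adjusted p = 5.8e-08). Its paralogue ascl1b (ENSDARG00000009702), the proneural gene of the early endocrine pancreas in zebrafish, had 549, 1604 and 1358 in RA cells, against 450.1, 263 and 176 in DMSO cells, and missed the threshold (log2 fold change 1.98 ± 0.59, DESeq2 adjusted p = 0.015). pdx1 (ENSDARG00000002779), the pancreas and duodenum homeobox gene, had 69.6, 302 and 101 in RA cells and 48.4, 61.0 and 13.6 in DMSO cells, with RA replicate 2 far above the rest, and was not called (log2 fold change 1.94 ± 0.68, DESeq2 adjusted p = 0.0573). rfx6 (ENSDARG00000041702) had 80.1, 54.0 and 41.7 in RA cells and 0, 25.9 and 11.5 in DMSO cells (DESeq2 adjusted p = 0.164). MYT1 (ENSDARG00000074030) had 125, 90.4 and 46.0 in RA cells and 68.5, 76.6 and 57.4 in DMSO cells (DESeq2 adjusted p = 0.859). myt1b (ENSDARG00000089464) had 60.4, 86.6 and 36.6 in RA cells and 50.2, 38.3 and 19.8 in DMSO cells (DESeq2 adjusted p = 0.63), so that none of these 3 regulators of endocrine cells was called. The proneural gene neurog1 (ENSDARG00000056130) had 14.5, 26.1 and 52.0 in RA cells, against 6.39, 0 and 2.09 in DMSO cells (log2 fold change 3.42 ± 0.82, DESeq2 adjusted p = 0.0011). This call was lost without RA replicate 3, DMSO replicate 2 or DMSO replicate 3, and the log2 fold change was 2.81 without RA replicate 3 and 4.91 without DMSO replicate 1. hnf1bb (ENSDARG00000022295), the paralogue of hnf1ba, had 19.7, 38.2 and 10.2 in RA cells, against 0, 1.03 and 0 in DMSO cells (DESeq2 adjusted p = 3.3e-04). The call was lost without DMSO replicate 1 or DMSO replicate 3. Against the trend, isl1 (ENSDARG00000004023), a LIM homeobox gene of islet cells, motor neurons and heart progenitors, had 197, 295 and 244 normalised counts in RA cells, against 3197, 1946 and 1811 in DMSO cells (log2 fold change -3.24 ± 0.36, DESeq2 adjusted p = 1.1e-16). nkx6.2 (ENSDARG00000044075) had 205, 207 and 182 in RA cells, against 1726, 750.1 and 1057 in DMSO cells (log2 fold change -2.57 ± 0.54, DESeq2 adjusted p = 1.0e-04). nkx2.2a (ENSDARG00000053298) had 0, 48.4 and 10.2 in RA cells, against 210, 70.4 and 209.7 in DMSO cells (log2 fold change -3.04 ± 0.67, DESeq2 adjusted p = 2.6e-04, and -4.86 without RA replicate 2).

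Of the genes found throughout the endoderm, those called were all lower. Of 14 tested pan-endodermal genes, none rose and 3 fell (1 without RA replicate 1), with a median log2 fold change of -0.18. The edgeR test called 1 lower. Over all genes tested 2.09% were called higher and 2.39% lower with DESeq2. foxa2 (ENSDARG00000003411) had 2512, 3258 and 4093 normalised counts in RA cells and 3358, 3095 and 2646 in DMSO cells (DESeq2 adjusted p = 0.933). foxa3 (ENSDARG00000012788) and gata5 (ENSDARG00000017821) were not called (adjusted p = 0.801 and 0.907). The 3 that fell were cxcr4a (ENSDARG00000057633), sox32 (ENSDARG00000041341) and foxa1 (ENSDARG00000019150). cxcr4a, the receptor by which endodermal cells stay tethered to mesoderm during gastrulation in zebrafish, had 53.9, 68.9 and 129 in RA cells, against 1369.5, 1453 and 1439 in DMSO cells (log2 fold change -4.08 ± 0.45, DESeq2 adjusted p = 2.6e-17). sox32, the gene upstream of sox17, had 13.1, 20.5 and 19.6 in RA cells, against 313, 85.9 and 198 in DMSO cells (log2 fold change -3.48 ± 0.85, DESeq2 adjusted p = 0.00138). The call did not hold without RA replicate 1 or DMSO replicate 1 (adjusted p up to 0.0307). foxa1 had 635, 921 and 819 in RA cells, against 1631, 1728 and 1794 in DMSO cells (log2 fold change -1.12 ± 0.28, DESeq2 adjusted p = 0.00209). This call was lost without RA replicate 1, DMSO replicate 2 or DMSO replicate 3 (adjusted p up to 0.0297).

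Anterior and pharyngeal genes fell broadly with RA. Of 33 tested genes on this list, 23 fell and none rose, with a median log2 fold change of -3.64 (-3.47 with the 6 genes at or near 0 in RA cells set to their bound). The edgeR test called 21 lower, and 21 to 23 were called lower when one library was left out. Over all genes tested 2.39% were called lower and 2.09% higher with DESeq2. The summed normalised count of the list was 1581 to 2582 in RA libraries, against 16386 to 19905 in DMSO libraries. The values come from bulk samples, in which fewer cells of a kind and less RNA per cell cannot be told apart.

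Among them, pax genes of the pharyngeal pouches were close to absent with RA. pax1b (ENSDARG00000073814) had no count in any RA library, against 246, 231 and 267 normalised counts in DMSO cells, at least 80.0-fold lower with RA. pax9 (ENSDARG00000053829) had 2 raw counts over the RA libraries, against 871 over the DMSO libraries (345, 229.7 and 283 normalised counts), a ratio of 434 (95% counting interval 120 to 3590) in favour of DMSO. pax1a (ENSDARG00000008203) had 13.1, 29.8 and 29.0 normalised counts in RA cells, against 374, 436 and 417 in DMSO cells (log2 fold change -4.07 ± 0.45, DESeq2 adjusted p = 1.3e-16). In NE cells the means of pax1b, pax9 and pax1a were 1.01, 2.63 and 1.37.

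Homeobox genes of the head fell as deeply. dmbx1a (ENSDARG00000009922), a homeobox gene known from the anterior neural plate, had 3 raw counts over the RA libraries, against 4487 over the DMSO libraries (2062, 1171 and 1145 normalised counts), a ratio of 1490 in favour of DMSO (95% counting interval 509 to 7230). otx2 (ENSDARG00000011235) had 11.8, 3.73 and 7.67 normalised counts in RA cells, against 671, 392 and 496 in DMSO cells (log2 fold change -6.11 ± 0.55, DESeq2 adjusted p = 6.3e-26). The otx gene otx1a (ENSDARG00000030703) had 0, 6.52 and 0 in RA cells, against 226, 379 and 335 in DMSO cells (log2 fold change -7.09 ± 0.70, DESeq2 adjusted p = 6.8e-21, and -10.66 without RA replicate 2 and -6.43 without RA replicate 3). gsc (ENSDARG00000059073), the gene goosecoid of the anterior mesendoderm, had 1.31, 2.79 and 4.26 in RA cells, against 773, 415 and 1012 in DMSO cells (log2 fold change -7.97 ± 0.69, DESeq2 adjusted p = 4.1e-28). irx7 (ENSDARG00000002601) had 17.1, 115 and 15.3 in RA cells, against 2049.6, 3997 and 2463 in DMSO cells (log2 fold change -5.85 ± 0.61, DESeq2 adjusted p = 4.0e-19, and -7.46 without RA replicate 2). nkx2.7 (ENSDARG00000021232) was less reduced, with 329.8, 409.9 and 390.2 normalised counts in RA cells, against 5157, 1869 and 2763 in DMSO cells (log2 fold change -3.11 ± 0.38, DESeq2 adjusted p = 1.5e-13).

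Genes of the eya family, which act in pouch and placode development, and their homeobox partner six4b fell as well. eya2 (ENSDARG00000018984) had 19.7, 15.8 and 15.3 normalised counts in RA cells, against 1203, 1068 and 989 in DMSO cells (log2 fold change -6.01 ± 0.42, DESeq2 adjusted p = 8.0e-43). eya1 (ENSDARG00000014259) had 14.5, 56.8 and 88.6 in RA cells, against 522, 667 and 702 in DMSO cells (log2 fold change -3.54 ± 0.35, DESeq2 adjusted p = 1.4e-20). six4b (ENSDARG00000031983) fell by 3.47 on the log2 scale, and its 3 RA values were below the 3 DMSO values. The ligand fgf3 (ENSDARG00000068094), needed for pouch formation, had 2.63, 5.59 and 10.2 in RA cells, against 207, 195 and 186 in DMSO cells (log2 fold change -4.94 ± 0.66, DESeq2 adjusted p = 1.6e-11, and -5.53 without RA replicate 3). Of 2 genes named tbx1, the T-box gene of pharyngeal segmentation, tbx1 (ENSDARG00000097046) had no count in RA cells, against 21.0, 25.9 and 27.1 in DMSO cells, and the more counted copy (ENSDARG00000031891) was not called (9.20, 37.3 and 65.6 in RA cells, 96.8, 611 and 505 in DMSO cells, DESeq2 adjusted p = 0.0186), with DMSO replicate 1 close to the RA libraries.

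**Figure D4:**
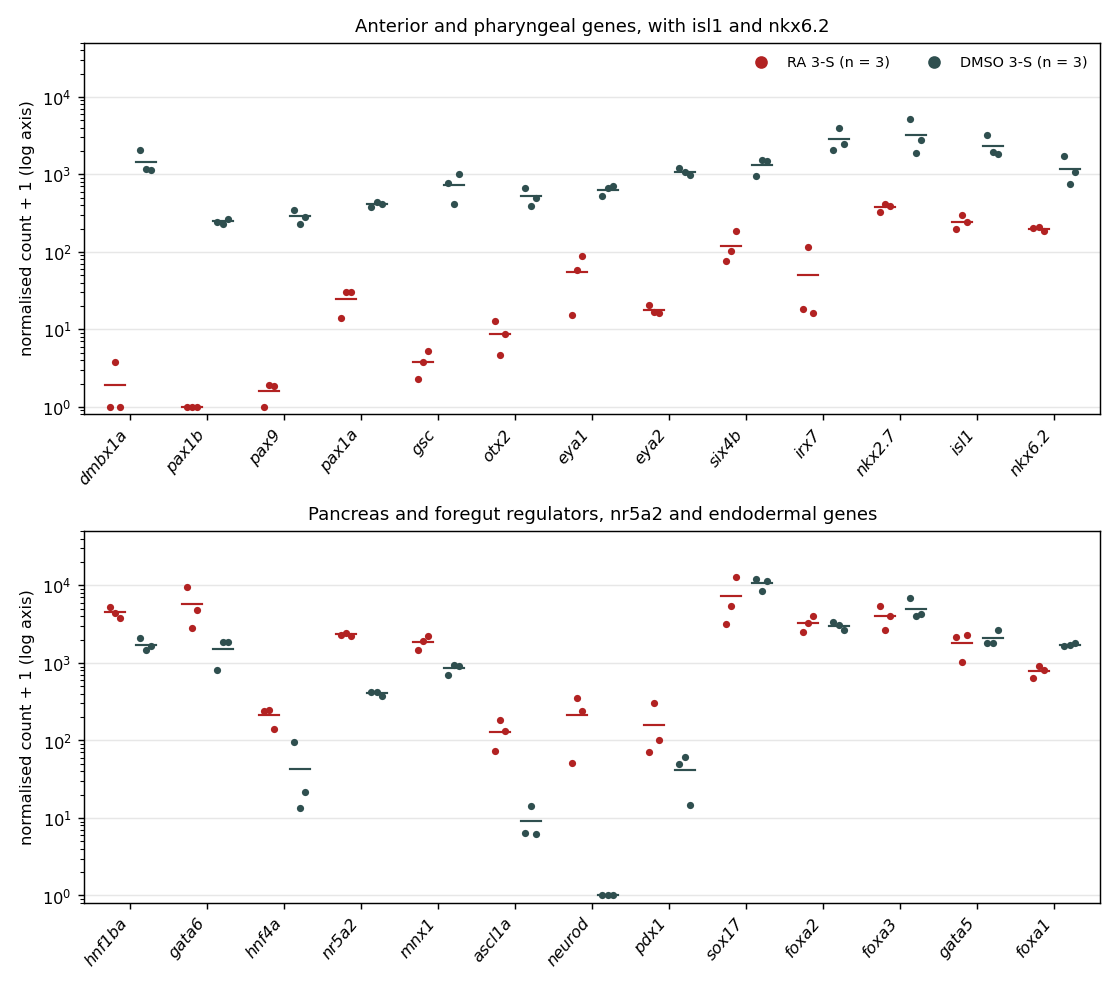
Normalised counts plus 1 (y axis, log scale) with 1 point per library, RA 3-S in red on the left and DMSO 3-S in dark grey on the right of each gene, and a bar at the mean of 3. The upper panel shows anterior and pharyngeal genes with isl1 and nkx6.2, where every RA point lies below every DMSO point. In the lower panel RA points lie above DMSO points for hnf1ba, gata6, hnf4a, nr5a2, mnx1, ascl1a, neurod and pdx1, overlap them for sox17, foxa2, foxa3 and gata5 and lie below them for foxa1.

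Posterior and tailbud genes fell as well, although in part. Of 29 tested genes, 13 fell and 1 rose, with a median log2 fold change of -1.46. With edgeR 8 were lower, and 9 to 12 were lower when one library was left out. Over all genes tested 2.39% were called lower and 2.09% higher with DESeq2. ntla (ENSDARG00000009905), the zebrafish brachyury gene, had 44.7, 142 and 269 normalised counts in RA cells, against 1164, 1352 and 1522 in DMSO cells (log2 fold change -3.14 ± 0.48, DESeq2 adjusted p = 8.6e-09, and -3.85 without RA replicate 3). The T-box genes tbx16 (ENSDARG00000007329) and tbx6l (ENSDARG00000006939) had 17.1, 22.4 and 29.0 and 1.31, 0.931 and 11.9 in RA cells, against 782, 793 and 628 and 98.6, 248 and 143 in DMSO cells (log2 fold changes -4.99 ± 0.40 and -5.01 ± 0.59, and for tbx6l -7.22 without RA replicate 3). msgn1 (ENSDARG00000070546), of the presomitic mesoderm, had 13.1, 44.7 and 39.2 in RA cells, against 438, 559.7 and 200.3 in DMSO cells and a mean of 5693 in NE cells (log2 fold change -3.61 ± 0.52, DESeq2 adjusted p = 5.4e-10). The oscillating segmentation gene her7 (ENSDARG00000017917) had 1.31, 11.2 and 5.96 in RA cells, against 325, 277 and 127 in DMSO cells (log2 fold change -5.25 ± 0.60, DESeq2 adjusted p = 1.2e-15, and -5.95 without RA replicate 2). Its partner her1 (ENSDARG00000014722) fell by 3.38, and fgf4 (ENSDARG00000068095) had no count in RA cells, against 91.3, 33.1 and 63.7 in DMSO cells, at least 20.2-fold lower with RA. The caudal gene cdx4 (ENSDARG00000036292) was not called, with 2039, 5703 and 5649 in RA cells and 5668, 7022 and 7133 in DMSO cells. The gene that rose was ripply1 (ENSDARG00000054103), which ends the presomitic program as somites form, with 4829, 3787 and 1748 in RA cells, against 526, 418 and 363 in DMSO cells (log2 fold change 2.99 ± 0.42, DESeq2 adjusted p = 1.4e-10). The summed count of the list was 16489.7 to 20301 in RA libraries, against 24248 to 24749.6 in DMSO libraries, and 23058 to 35431 in NE libraries, and the part of NE cells in the sort was not tested. Of the 6 tested genes of Kupffer's vesicle and its forerunner cells, which also express sox17, dand5 (ENSDARG00000036471) and tbx16 fell, with dand5 at 6.57, 5.59 and 16.2 in RA cells, against 433, 169 and 306 in DMSO cells (log2 fold change -4.98 ± 0.75, DESeq2 adjusted p = 5.2e-09, and -5.65 without RA replicate 3).

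The signalling lists differed in how many of their genes were called, beside 2.09% higher and 2.39% lower over all genes tested. For FGF signalling 4 of 25 tested genes fell and none rose, among them fgf3, fgf4, flrt3 (ENSDARG00000076895) (399, 521 and 906 in RA cells, 3952, 2829.6 and 3088 in DMSO cells; log2 fold change -2.43 ± 0.33, DESeq2 adjusted p = 3.2e-11) and the FGF target etv5a (ENSDARG00000069763) (log2 fold change -1.66 ± 0.30). No other gene of the FGF list was called, which also holds etv4, etv5b, dusp6 and SPRY4. Its median log2 fold change was -0.25, with 12 genes positive and 13 negative. fgf8a (ENSDARG00000003399) was not called (DESeq2 adjusted p = 0.0734), with RA replicate 1 at 141 far below 660.4 and 626 in the other RA libraries, against 1296, 1092 and 1165 in DMSO cells. For Wnt signalling 10 of 42 fell and 2 rose. Without RA replicate 1 or DMSO replicate 1 these were 6 and 1, and 1 rose without DMSO replicate 2. The receptor gene fzd10 (ENSDARG00000068213) had 10.5, 22.4 and 24.7 in RA cells, against 505, 444 and 452 in DMSO cells (log2 fold change -4.57 ± 0.35, DESeq2 adjusted p = 1.1e-34). fzd9b (ENSDARG00000014673), fzd8b (ENSDARG00000038569) and lgr6 (ENSDARG00000018648) fell by 3.49, 3.24 and 3.82 on the log2 scale (fzd9b -4.64 without RA replicate 3), and the ligand gene wnt4a (ENSDARG00000071208) rose (76.2, 43.8 and 34.9 in RA cells, against 8.22, 3.10 and 4.17 in DMSO cells; log2 fold change 3.28 ± 0.55, DESeq2 adjusted p = 2.5e-07). wnt8a (ENSDARG00000052910), a posteriorising ligand of the margin, had 0, 8.38 and 17.0 in RA cells, against 13.7, 168 and 71.0 in DMSO cells (log2 fold change -3.26 ± 0.83, DESeq2 adjusted p = 0.0024). The call was lost without RA replicate 1, RA replicate 2 or DMSO replicate 2, and the log2 fold change was -4.24 without RA replicate 3 and -2.27 without DMSO replicate 2. None of the 15 tested Hedgehog genes was called by DESeq2 or edgeR over these libraries, and 1 had an unadjusted p under 0.05, beside 16% of all genes tested. DESeq2 on the 12 libraries of 3-S alone called 1 of them lower.

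In the Notch list 3 of 27 genes rose (1 without RA replicate 1 or DMSO replicate 1) and 4 fell. The listed ligand gene dld was matched only by a human symbol, DLD (ENSDARG00000008785), and that gene may not be the ligand gene. It is also a member of the posterior and tailbud list. The ligand gene jag1b (ENSDARG00000013168) had 3.94, 15.8 and 17.9 in RA cells, against 298, 418 and 399.6 in DMSO cells (log2 fold change -4.82 ± 0.39, DESeq2 adjusted p = 9.0e-32). The repressor gene her9 (ENSDARG00000056438) had 172, 317 and 428 in RA cells, against 2534, 6998 and 4119.5 in DMSO cells (log2 fold change -3.89 ± 0.44, DESeq2 adjusted p = 1.6e-16). The ligand gene jag2b (ENSDARG00000021389) had 1088, 509 and 371 in RA cells, against 176, 256 and 129 in DMSO cells (log2 fold change 1.81 ± 0.40, DESeq2 adjusted p = 2.1e-04, and 0.0266 without RA replicate 1). notch1b (ENSDARG00000052094) (1955, 72.7 and 196 in RA cells, against 17.3, 101 and 114 in DMSO cells) was called higher although the groups overlapped, a call lost without RA replicate 1 or DMSO replicate 1 (log2 fold change 3.26 ± 0.79, and 0.80 without RA replicate 1). In the list for BMP and Nodal signalling 3 of 40 rose and 10 fell. Only 1 rose without DMSO replicate 2 or DMSO replicate 3, and 6 fell without RA replicate 1, DMSO replicate 1 or DMSO replicate 3. szl (ENSDARG00000022987), which encodes the secreted inhibitor sizzled, had 1.31, 1.86 and 5.11 normalised counts in RA cells, against 1445, 774 and 1417 in DMSO cells (DESeq2 adjusted p = 3.4e-11), one of the deepest falls of all. bmp7a (ENSDARG00000018260) fell by 3.67 on the log2 scale and bmp2a (ENSDARG00000013409) by 2.42, and the BMP antagonist genes nog1 (ENSDARG00000058819) and nog2 (ENSDARG00000043066) were also lower (13.1, 18.6 and 43.4 in RA cells, against 162, 95.2 and 184 in DMSO cells, for nog1). The Nodal antagonist gene lft1 (ENSDARG00000019920) fell by 2.73, a call lost without RA replicate 1, RA replicate 2, DMSO replicate 1 or DMSO replicate 3 (-1.80 without DMSO replicate 1). In contrast bmp5 (ENSDARG00000004965) had 36.8, 82.9 and 80.9 in RA cells, against 0, 3.10 and 0 in DMSO cells, with 3 raw counts over the DMSO libraries and a ratio of 70.9 (95% counting interval 23.9 to 347) in favour of RA. Among Eph receptors and ephrins 8 of 21 fell and 2 rose, ephb2b (ENSDARG00000021539) (log2 fold change 1.60 ± 0.45) and efnb3a (ENSDARG00000044029) (log2 fold change 1.05 ± 0.29). Neither rise was called by edgeR, nor without any one of the libraries other than RA replicate 3. epha7 (ENSDARG00000004635) had 21.0, 18.6 and 11.9 in RA cells, against 331, 408 and 341 in DMSO cells (log2 fold change -4.41 ± 0.38, DESeq2 adjusted p = 2.0e-28). epha4a (ENSDARG00000054454) fell by 2.94, ephb4b (ENSDARG00000027112) by 2.03, ephb3a (ENSDARG00000031548) by 2.00 and EPHA3 (ENSDARG00000039373) by 3.25 on the log2 scale, the last lost without RA replicate 1, RA replicate 2, RA replicate 3 or DMSO replicate 1 (-1.70 without DMSO replicate 1).

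Genes of cell adhesion and junctions were called in both directions, 10 higher and 9 lower among 51 tested. The edgeR test called 8 higher and 6 lower, and leaving out one library left 8 to 10 higher and 6 to 8 lower. Over all genes tested 2.09% were called higher and 2.39% lower with DESeq2. Claudins, the tight junction proteins, made up several of the rises. cldn2 (ENSDARG00000044387) had 957, 329.7 and 399.6 normalised counts in RA cells, against 9.13, 25.9 and 10.4 in DMSO cells (log2 fold change 5.22 ± 0.57, DESeq2 adjusted p = 1.4e-17, and 4.60 without RA replicate 1 and 5.85 without DMSO replicate 2). cldn15a (ENSDARG00000036463), a claudin of the intestinal epithelium, had 3856, 1814 and 2097 in RA cells, against 75.8, 127 and 65.7 in DMSO cells (log2 fold change 4.85 ± 0.50, DESeq2 adjusted p = 1.9e-19). cldnc (ENSDARG00000015955) had 4082, 3745 and 1689 in RA cells, against 362, 473 and 207 in DMSO cells (log2 fold change 3.19 ± 0.52, DESeq2 adjusted p = 9.3e-08). cdh17 (ENSDARG00000005112), the cadherin of liver and intestine in mammals, had 548, 392 and 203 in RA cells, against 23.7, 7.24 and 13.6 in DMSO cells (log2 fold change 4.67 ± 0.57, DESeq2 adjusted p = 9.5e-14). Paralogues diverged again. pcdh10a (ENSDARG00000054274) rose, with 6668, 1562 and 1919 in RA cells, against 341, 665 and 460.2 in DMSO cells (log2 fold change 2.79 ± 0.50, DESeq2 adjusted p = 1.6e-06, and 1.84 without RA replicate 1). pcdh10b (ENSDARG00000036121) fell, with 25.0, 26.1 and 46.9 in RA cells, against 1716, 786 and 1147 in DMSO cells (log2 fold change -5.21 ± 0.45, DESeq2 adjusted p = 2.2e-28). The chemokine gene cxcl12a (ENSDARG00000037116) had 1209, 975 and 1108 in RA cells, against 104, 149 and 239 in DMSO cells (log2 fold change 2.74 ± 0.43, DESeq2 adjusted p = 2.5e-08). Its paralogue cxcl12b (ENSDARG00000055100), which encodes the ligand of Cxcr4a in endoderm migration, had 279.9, 486 and 1386 in RA cells, against 8449, 7739 and 6617 in DMSO cells (log2 fold change -3.40 ± 0.53, DESeq2 adjusted p = 1.4e-08, and -4.31 without RA replicate 3).

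Marker lists of other cell types moved in part. Their counts stand beside 2.09% higher and 2.39% lower over all genes tested. Summed neural markers were 2271 to 3204 in RA libraries, against 6660.1 to 6937 in DMSO libraries and 19244 to 21449.7 in NE libraries, with 2 of 21 tested genes higher (1 without RA replicate 3, DMSO replicate 2 or DMSO replicate 3) and 5 lower. The midbrain and hindbrain boundary gene gbx2 (ENSDARG00000002933) had 3.94, 20.5 and 27.3 in RA cells, against 1290, 885 and 1142 in DMSO cells (log2 fold change -5.94 ± 0.38, DESeq2 adjusted p = 7.2e-52), where its NE mean of 232 was lower than in DMSO endodermal cells. The forebrain genes six3a and six3b were opposite, with six3a (ENSDARG00000058008) at 339, 128 and 73.3 in RA cells, against 1.83, 4.14 and 9.39 in DMSO cells (log2 fold change 5.15 ± 0.77, DESeq2 adjusted p = 3.3e-09, and 4.32 without RA replicate 1 and 5.93 without DMSO replicate 3). six3b (ENSDARG00000054879) at 0, 6.52 and 19.6 in RA cells, against 199, 50.7 and 118 in DMSO cells (log2 fold change -3.74 ± 0.59, DESeq2 adjusted p = 2.6e-08, and -5.08 without RA replicate 3). The pluripotency gene pou5f3 (ENSDARG00000044774), also active in the neural plate, and the neural gene sox3 (ENSDARG00000053569) fell by 3.42 and 2.4 on the log2 scale (pou5f3 -4.09 without RA replicate 3). Neural crest markers were at 209.6 to 347 in RA and 301 to 370.4 in DMSO libraries, against 3958 to 5319 in NE libraries, and none of 11 was called by either tool (2 with an unadjusted p under 0.05, which 16% of all genes tested had). Epidermal markers were 15716 to 17483 in RA against 24904 to 34568 in DMSO libraries (1 higher, or 2 without RA replicate 3, and 2 lower of 23), where tp63 (ENSDARG00000044356) had 273, 183 and 227 in RA cells, against 2140, 752 and 987 in DMSO cells (log2 fold change -2.51 ± 0.40, DESeq2 adjusted p = 4.9e-08), grhl3 (ENSDARG00000078552) fell by 2.76 on the log2 scale and dlx3b (ENSDARG00000014626) rose by 3.26 ± 0.50. Markers of paraxial and intermediate mesoderm were 7819.9 to 9709 in RA against 5901 to 12743 in DMSO libraries (3 higher and 5 lower of 20). Most of these calls were also counted in lists above: aldh1a2 and ripply1 (higher), and cyp26c1, tbx16, tbx6l and msgn1 (lower). Of the others pcdh8 (ENSDARG00000006467) fell by 3.23, while osr1 (ENSDARG00000014091) of the intermediate mesoderm had 3687, 3881 and 4431 in RA cells, against 621, 730.4 and 748 in DMSO cells (log2 fold change 2.52 ± 0.29, DESeq2 adjusted p = 3.2e-15).

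For the axial mesoderm list the sums were 7277 to 33139 in RA and 8175 to 10702 in DMSO libraries. The highest value was set by col2a1a (ENSDARG00000069093) in RA replicate 1 (31884, 6723 and 4993 in RA cells, 5635, 6619 and 4101 in DMSO cells; not called, adjusted p = 0.135), and 2 of 16 genes were lower, gsc and flh (ENSDARG00000021201) (log2 fold change -2.20 ± 0.55, a call lost without RA replicate 1, RA replicate 3 or DMSO replicate 1, -1.47 without DMSO replicate 1). This count was 1 without RA replicate 1 or DMSO replicate 1 and 4 without RA replicate 3. Heart mesoderm markers had 2 higher (1 without RA replicate 2) and 3 lower of 11, with hand2 (ENSDARG00000008305) at 1110.3, 1729 and 1097 in RA cells, against 232, 137 and 202 in DMSO cells (log2 fold change 2.79 ± 0.51, DESeq2 adjusted p = 3.0e-06) and tbx20 (ENSDARG00000005150) at 0, 0 and 0.852 in RA cells, against 42.9, 90.01 and 65.7 in DMSO cells (DESeq2 adjusted p = 5.6e-07). bmp4 (ENSDARG00000019995) fell by 1.61, a call lost without RA replicate 1, DMSO replicate 2 or DMSO replicate 3. Of blood and endothelium markers 1 of 15 rose, cebpa (ENSDARG00000036074), which also marks liver and gut cells (3806, 1611 and 1976 in RA cells, against 421, 417 and 212 in DMSO cells; log2 fold change 2.82 ± 0.52, DESeq2 adjusted p = 3.5e-06), and 1 fell, tal1 (ENSDARG00000019930) (log2 fold change -3.40 ± 0.69), with 2 lower without RA replicate 3. For the yolk syncytial layer 3 of 12 rose and 2 fell, whereas edgeR called 1 higher and 0 lower, and none fell without RA replicate 1 or DMSO replicate 1. tfa (ENSDARG00000016771), for transferrin, fell by 2.46, a call lost without RA replicate 1, RA replicate 2, DMSO replicate 1 or DMSO replicate 3, whereas mxtx1 (ENSDARG00000069382) had 759, 367 and 633 in RA cells, against 131, 107 and 78.3 in DMSO cells (log2 fold change 2.48 ± 0.44, DESeq2 adjusted p = 1.8e-06). Whether a different mix of sorted cells has a part in these values was not tested. None of 31 cell cycle genes was called by either tool, and 2 had an unadjusted p under 0.05, against 16% of all genes tested. Of 29 stress, p53 and cell death genes 1 rose and none fell, near the shares over all genes tested (2.09% higher and 2.39% lower). The gene that rose was gadd45ab (ENSDARG00000069991), with 554, 1169 and 1105 in RA cells, against 359, 324 and 286 in DMSO cells (log2 fold change 1.55 ± 0.29, DESeq2 adjusted p = 4.1e-06).

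The largest changes of all genes included some outside the lists. Among the 12 largest rises, which were taken from genes whose groups did not overlap, arl3l1 (ENSDARG00000028846) had 63.1, 402 and 188 normalised counts in RA cells, against 0.913, 1.03 and 2.09 in DMSO cells. enpep (ENSDARG00000057064), which encodes a membrane aminopeptidase, had 681, 344 and 103 in RA cells, against 0, 5.17 and 5.22 in DMSO cells. ehf (ENSDARG00000052115), an Ets factor of epithelia, had 130.1, 103 and 30.7 in RA cells, against 0, 0 and 3.13 in DMSO cells. The hormone gene sst1.1 (ENSDARG00000040799) (somatostatin) had 60.4, 320.4 and 22.2 in RA cells, against 0, 4.14 and 1.04 in DMSO cells. The RA libraries were spread widely in these genes, and the log2 fold change of sst1.1, 6.32 with all libraries, was 4.61 without RA replicate 2 and 5.70 without DMSO replicate 1 and 8.10 without DMSO replicate 2. fgg (ENSDARG00000037281), the gamma chain of fibrinogen and a liver gene, had 114, 222 and 47.7 in RA cells, against 2.74, 2.07 and 1.04 in DMSO cells (log2 fold change 6.02 ± 0.84, DESeq2 adjusted p = 1.3e-10, and 5.35 without RA replicate 2). The other rises of this size outside the lists were those of gria3a (ENSDARG00000032737), a glutamate receptor gene (110.4, 41.0 and 52.0 in RA cells, against 0.913, 3.10 and 0 in DMSO cells), oaz2b (ENSDARG00000059815), an antizyme gene (137, 285 and 55.4 in RA cells, against 3.65, 2.07 and 1.04 in DMSO cells; log2 fold change 6.12 ± 0.84, and 5.38 without RA replicate 2), and KCNG4 (1 of 2) (ENSDARG00000051892). Among the 12 largest falls, six7 (ENSDARG00000070107) had 1 raw count over the RA libraries, against 305, 98.3 and 209 normalised counts in DMSO cells. By difference of counts the largest falls were led by marcksl1b (ENSDARG00000035715) (9073, 8359 and 8056 in RA cells, against 25610, 15565 and 15464 in DMSO cells), whose log2 fold change of -1.15 ± 0.30 was small and lost its call without any RA library or DMSO replicate 1 (adjusted p up to 0.0904), arid3b (ENSDARG00000070474) (log2 fold change -1.40 ± 0.34, a call lost without RA replicate 2, RA replicate 3, DMSO replicate 1 or DMSO replicate 3) and si:ch211-156j16.1 (ENSDARG00000092035) (687, 1039.5 and 1894 in RA cells, against 12792, 8043 and 9819.9 in DMSO cells; log2 fold change -3.08 ± 0.40, DESeq2 adjusted p = 2.1e-12).

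At 8-S, in other embryos and with other DMSO libraries, the genes called at 3-S mostly kept their direction. Of the 375 genes that rose at 3-S, 368 had a positive log2 fold change at 8-S and 151 were called higher there, where 1.09% of genes tested were. Of the 429 genes that fell, 420 had a negative log2 fold change at 8-S and 220 were called lower, against 1.92% of genes tested. None was called in the opposite direction. The median log2 fold changes of the same genes were 2.65 at 3-S and 1.64 at 8-S for those that rose, and -2.82 and -2.0 for those that fell. These genes were chosen for their 3-S values, so that a smaller value at 8-S is also what the choice gives. The test of the difference between the stages called 2 of 29144 genes (0.00686%), and 798 had an unadjusted p under 0.05. For cyp26a1 the log2 fold change was 4.37 ± 0.36 at 3-S and 3.16 ± 0.36 at 8-S, for lrata 7.90 ± 0.64 and 6.21 ± 0.62, for hoxb5b 4.40 ± 0.27 and 3.59 ± 0.27, and for eya2 -6.01 ± 0.42 and -5.26 ± 0.39. In the pancreas and foregut list, 11 genes were called higher at 3-S and 3 at 8-S, with median log2 fold changes of 1.31 and 0.76. In the anterior and pharyngeal list 23 were called lower at 3-S and 24 at 8-S, with medians of -3.64 and -4.26. The test of the difference between the stages called 0 genes in either list.

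**Figure D5:**
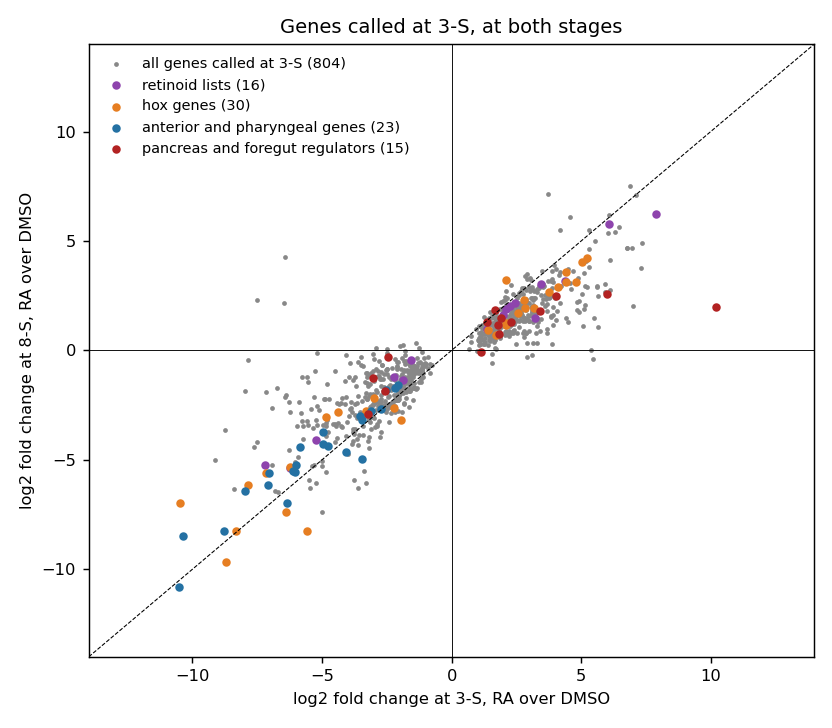
Log2 fold change of RA over DMSO at 8-S (y axis) against that at 3-S (x axis) for the 804 genes called at 3-S, 1 point per gene, with genes of 4 groups in colour and the line of equal change dashed. Most points lie in the lower left and upper right of the plot, and the anterior and pharyngeal genes lie below 0 on both axes.

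BMS493 against DMSO at 3-S shares its DMSO libraries with the RA comparison, so its values are given beside those of RA without a test of likeness. It called 2 genes higher (0.0155% of 12894 tested) and 32 lower (0.248%). dhrs3a ranged from 1.06 to 36.8 normalised counts in BMS493 cells, with a log2 fold change over DMSO of -5.87 ± 0.47 beside 3.47 ± 0.43 with RA. For gata6 the values were 142 to 171 and -3.26 ± 0.50 beside 1.92 ± 0.50, for nr2f1a 79.6 to 159.8 and -2.96 ± 0.36 beside 2.39 ± 0.36, and for hoxb5b 114 to 178 and -1.96 ± 0.28 beside 4.40 ± 0.27. ascl1b, not called with RA, ranged from 9.64 to 24.1 in BMS493 cells and was called lower there (-4.05 ± 0.62, DESeq2 adjusted p = 8.4e-08). Several genes with large RA changes had no call with BMS493. cyp26a1 ranged from 1234 to 1754 in BMS493 cells (-0.05 ± 0.36, DESeq2 adjusted p = 1.), cyp26c1 from 1569.9 to 6824 (-0.35 ± 0.61) and eya2 from 430.3 to 1200.4 (-0.33 ± 0.37).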

How the data were processed

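The authors sorted GFP+ and GFP- cells from Tg(sox17:GFP) embryos, made cDNA with oligo-dT priming, sequenced single-end libraries and aligned the reads with STAR 2.5.4 to Zv9, as the submitters' processing notes and the study's methods give it. The deposited values are raw read counts per gene from STAR, of which the column without strand was used. Rows that name no gene were left out, and reads outside annotated genes made up 12.87% to 20.78% of the reads in the 6 libraries. Reads that map to several places are not counted, so that near-identical paralogues are uncertain.

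DESeq2 1.42.0 in R 4.3.3 was fitted to all 24 libraries with group as the only factor, with a Wald test, Benjamini-Hochberg adjustment over the 17935 genes kept by its independent filtering, of 29149 with a count, and a threshold of 0.01. edgeR 4.0.16 (quasi-likelihood test), other size factors, filters, strand columns, subsets of libraries, the replicate number as a block and leaving out each library were alternatives. The scripts were tested on simulated data. Of 33737 gene IDs 22589 (67.0%) had a name, and symbols in capitals are names by similarity to human genes. The study's own tables gave the names of 3110 IDs. Groups came from the labels. The members and gene lists were chosen with earlier results of these data known. Named genes are called members of the retinoid lists and uncalled ones averaging 50 or more normalised counts, up to 6 called members of largest change per other list (mean at least 20 in the higher group), the 12 largest rises and falls among genes with a symbol and no overlap (mean at least 50), the 6 largest count differences each way, up to 5 genes that differed between stages, and pdx1, rfx6 and both myt1 genes. These genes lay outside that rule and were chosen after their values were seen: ascl1b, bmp2a, cdx4, cldnc, col2a1a, cxcl12a, efnb3a, ephb2b, eya1, eya2, fgf8a, foxa2, foxa3, gata5, hnf1ba, hoxa2b, hoxa9b, hoxb1a, hoxb1b, hoxb3a, hoxb7a, hoxd9a, irx7, mnx1, nkx2.7, nkx6.2, ntla, osr1, otx2, pax1a, pcdh10a, six4b, sox17 and the second tbx1, and those named only in the closing observations on neighbouring genes. A few list members are counted but not reported by name here. Intervals and limits from counts cover counting error only.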

Additional observations from a re-analysis of the deposited data

Results flagged for a closer look

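The effect of RA differed between the stages for 2 genes by the DESeq2 test of the difference. eng2a (ENSDARG00000026599), an engrailed homeobox gene, had 10.5, 3.73 and 0.852 normalised counts in RA cells at 3-S, against 1.83, 2.07 and 2.09 in DMSO cells, with a log2 fold change of 1.27 ± 1.09 (SE). At 8-S it was at 0 in every RA library, against 1.21 to 100.9 normalised counts in DMSO libraries. The difference between the stages was 9.11 ± 1.81 on the log2 scale (DESeq2 adjusted p = 0.0072), and this fitted value depends on libraries with few or no counts. has2 (ENSDARG00000036987), a hyaluronan synthase gene, had 22.3, 14.9 and 9.37 normalised counts in RA cells at 3-S, against 13.7, 24.8 and 20.9 in DMSO cells, with a log2 fold change of -0.38 ± 0.47. At 8-S it had 4.78 to 10.9 in RA libraries, against 65.0 to 163.5 in DMSO libraries, with a log2 fold change of -3.81 ± 0.48. The difference was 3.43 ± 0.67 on the log2 scale (DESeq2 adjusted p = 0.0072). Both genes were higher in NE cells at 3-S, with means of 261.6 for eng2a and 340.1 for has2, and the part of NE cells in the 8-S values was not tested. edgeR called neither.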

How the results depend on the processing

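Of the 157 called genes named in the text, all kept their direction under every alternative run, 122 also kept their call under every one, and 128 kept it when any one library was left out. edgeR called 453 genes (197 higher, 256 lower) and an adjusted p under 0.05 called 1246 (595 higher, 651 lower), against 804 (375 higher, 429 lower) with DESeq2 over all 24 libraries, and leaving out one library gave 594 to 707 (252 to 338 higher, 308 to 380 lower). More were higher than lower with only the 6 libraries compared (594 called, 301 higher, 293 lower) and without DMSO replicate 1 (338 higher, 308 lower), and 734 were called without independent filtering. The test of the difference between stages called 0 genes with edgeR, 0 with the 18 endodermal libraries, 0 with either strand-specific column, 5 at an adjusted p under 0.05, and 0 to 4 when one library was left out (0 without RA replicate 1, RA replicate 2, DMSO replicate 1 or DMSO replicate 3, and 4 without DMSO replicate 2). The cause of these shifts was not tested. Some genes that were not called changed sign between fits. The log2 fold change of foxa2 was -0.075 to 0.284 over the fits without one library, that of gata5 -0.387 to 0.103, and that of hoxb7a -0.428 to 0.573, and 0.069 with the replicate block. With the replicate number as a block 826 genes were called (387 higher, 439 lower), and 3 for the difference between stages. Deviations of same-numbered RA and DMSO libraries correlated at -0.087, -0.215 and 0.235 over 12422 genes, so the numbers were not taken as pairs. Those of libraries with unlike numbers ranged from -0.284 (RA replicate 2 with DMSO replicate 3) to 0.306 (RA replicate 2 with DMSO replicate 1). Whether libraries shared a batch across numbers was not tested.

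Changes of 4-fold were simulated in 100 raised and 100 lowered genes with a mean of at least 20 counts, among 33737 genes. DESeq2 called 68 and 61 of them, and 11 unchanged genes, and edgeR 39, 43 and 1. Changes of this size were therefore missed in part at this depth and number of libraries. The 11 unchanged genes were also a larger share of the DESeq2 calls than the adjusted p threshold allows for. With edgeR fewer changed genes and fewer unchanged genes were called. Whether the DESeq2 calls in the real libraries hold a similar share of unchanged genes was not tested.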

Other observations

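Genes that lie next to each other often changed in the same direction. The neighbours were taken from the order of genes in the RefSeq map of the GRCz12tu assembly, which was used for names and order only. Of the 17935 genes tested 6261 were placed on it, and 2034 adjacent pairs had both genes tested. Both were higher with RA in 38 pairs, both lower in 31 and 1 was higher and the other lower in 6. Of the neighbours of higher genes 32.9% were higher, beside 5.68% of all pair members, and of the neighbours of lower genes 27.1% were lower, beside 5.63%. Over all genes tested 2.09% were higher and 2.39% lower, so the pair members held more called genes than the whole. The names of 3110 IDs came from the study's own tables, which include its lists of RA-regulated genes. Of the called genes 7 higher and 8 lower ones had no name, while 67.0% of all IDs had one. Whether this naming has a part in the share of called genes among pair members was not tested. Shares without the hox clusters were not taken. Some pairs are paralogues that arose side by side, such as dlx3b and dlx4b (log2 fold changes 3.26 and 2.90), irx5a and irx3a (-4.44 and -4.78) and the hox genes. Others share no family. dhrs3a lay between igsf21b (3.16) and vps13d (1.71), cyp26b1 between exoc6b (1.02) and dysf (2.71), lrata beside fgg (7.90 and 6.02), sst1.1 beside masp1 (6.32 and 2.90, or 4.61 for sst1.1 without RA replicate 2), oaz2b beside rbpms2b (6.12 and 5.53, or 5.38 for oaz2b without RA replicate 2) and cxcl12a beside tmem72 (2.74 and 4.43), all higher with RA. The counts were taken without strand. Reads that overlapped more than 1 annotated gene were set apart as ambiguous (1.89% to 2.87% of the reads in the 6 libraries) and counted to no gene. Whether other reads of a gene were counted to its neighbour was not tested.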
